A study of Mus musculus with 2 samples.

Results

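The genes that move calcium out of the cytosol of heart cells were examined in total RNA from newborn mouse hearts. The set held 10 genes, found by matching the symbols of 3 sarcoplasmic reticulum pumps (Atp2a1, Atp2a2, Atp2a3), 2 small membrane peptides that restrain them (Pln, Sln), 2 plasma membrane pumps (Atp2b1, Atp2b4) and 3 sodium-calcium exchangers (Slc8a1, Slc8a2, Slc8a3) to gene identifiers. All 10 were found among 43346 Ensembl genes, with 34 annotated transcripts between them. The animals were pups of the inbred strain B6NCrl at postnatal day 0, and the labels name no mutation, transgene or agent. There was 1 group of 2 hearts. Replicate 1 was the heart of pup 2 and replicate 2 that of pup 3 from the same pregnancy. The labels give both hearts 1 donor identifier but describe separate pups, so they are read here as 2 animals whose spread may include technical error. The libraries held 46151722 and 44707283 expected counts, which are reads after those matching several features were shared out.

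Each heartbeat begins when calcium enters the muscle cell and releases more from the sarcoplasmic reticulum, and it ends when that calcium is removed. The pump encoded by Atp2a2, known as SERCA, returns calcium to the store using ATP, while the exchanger encoded by Slc8a1, known as NCX, and the plasma membrane pumps, known as PMCA, carry calcium out of the cell. Phospholamban, the product of Pln, holds SERCA back until it is phosphorylated, and sarcolipin, the product of Sln, is a shorter relative known in the mouse heart chiefly from the atria. In rodents removal through the store is known to gain weight after birth, whereas the immature heart leans more on the exchanger.

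Levels are in TPM, a relative abundance for which reads are first divided by the length of the gene model. The hearts were checked by marker genes first. All 6 heart muscle markers were detected, from Ryr2 at 26.2 and 22.2 TPM to Actc1 at 16412 and 13902 TPM in replicates 1 and 2. Of 8 markers of fast skeletal muscle, 4 reached 1 TPM in both hearts. These were Tnni2 (6.74 and 7.17 TPM), Mylpf (3.64 and 2.03 TPM), Tnnt3 (1.94 and 2.40 TPM) and Pvalb (1.44 and 1.57 TPM). The list summed to 13.8 and 13.2 TPM, and its myosin genes Myh1, Myh2 and Myh4 were at or below 0.03 TPM. None of 4 neuron markers reached 1 TPM. With 2 hearts no p-value is given, since the smallest two-sided p that an exact sign-flip test of 2 values allows is 0.5. Statements that levels differ mean that both hearts lay on the same side and that the deposited credibility intervals did not overlap. In tissue RNA, fewer cells of a type and less RNA per cell cannot be told apart.

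Pln stood first, followed by Sln, Atp2a2, Slc8a1, Atp2b1, Atp2b4, Atp2a3, Atp2a1, Slc8a3 and Slc8a2. Of the 9 neighbouring pairs in this order, 8 were separated, and Atp2a1 and Slc8a3 were not. Not all of the 8 are equally secure. The place of Sln above Atp2a2 turned round on counts not divided by length. That of Slc8a3 above Slc8a2 rests on 21 and 16 counts against 7 and 3. The place of Atp2b4 above Atp2a3 is not secure either. A model of 588 bases, Atp2b4-204, held 39.4% and 20.7% of the TPM of Atp2b4 in replicates 1 and 2. That part exceeded the gap between Atp2b4 and Atp2a3 in replicate 1 but not in replicate 2. In replicate 2 the interval of Atp2b4 began at 2.538 TPM and that of Atp2a3 ended at 2.5 TPM. At 1 TPM or more in both hearts 7 of 10 genes were detected, against 29.6% of all Ensembl genes and 54.5% of protein-coding ones. The 3 below that level were the skeletal pump gene Atp2a1 and the exchanger genes Slc8a2 and Slc8a3. Together the 10 genes made up 0.308% and 0.313% of all TPM, most of it from Pln and Sln. Posterior standard deviations of the counts were at most 0.00436% of the mean in 9 genes, so sharing of reads between paralogs hardly entered their values. The exception was Atp2a1, at 8.42% and 4.63%.

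**Figure D1:**
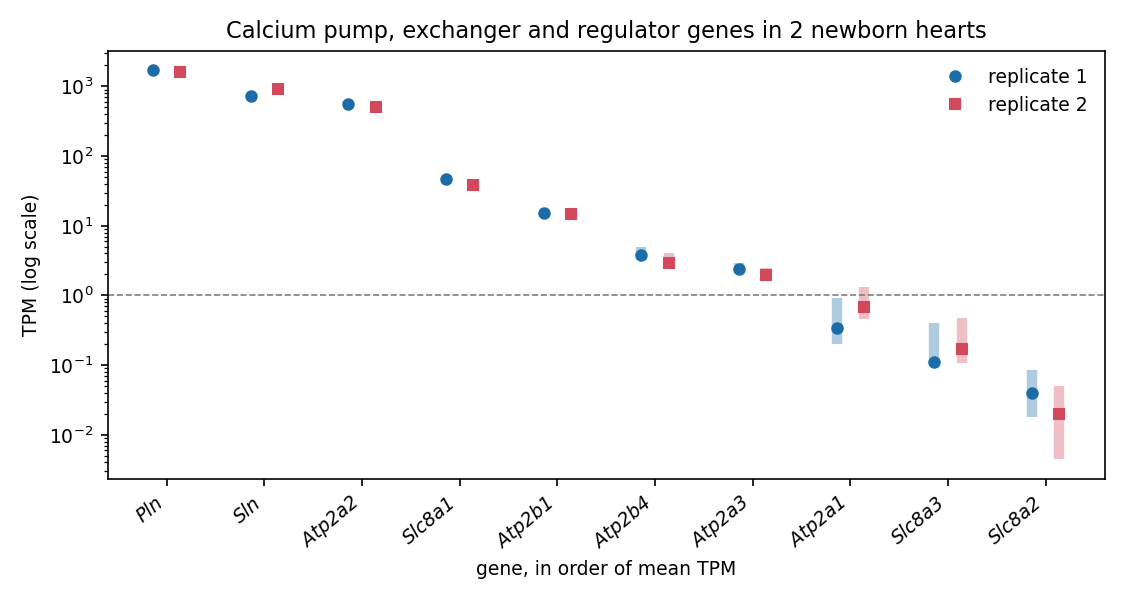
TPM of the 10 genes on a log scale in replicate 1 (circles) and replicate 2 (squares), with the deposited credibility interval as a pale bar and 1 TPM as a dashed line. Pln, Sln and Atp2a2 lie at 508 TPM or above in both hearts and Atp2a1, Slc8a3 and Slc8a2 below 1 TPM.

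Atp2a2 (chr5:122453513-122502225, minus strand, mm10), the pump gene of heart and slow muscle, supplied nearly all SERCA transcripts. Its level was 567 TPM in replicate 1 against 508 TPM in replicate 2, from 91367 and 81057 counts. That was 99.5% of the summed TPM of the 3 pump genes in each heart, and Atp2a2 ranked 253rd of all genes. Atp2a3 (chr11:72961169-72993044), the pump gene known from blood cells, endothelium and secretory epithelia, stood at 2.36 and 1.99 TPM on 374 and 322 counts. Its level was low but well above the 0.0189 and 0.0185 TPM that 3 counts would give. Endothelial markers were all detected, with Pecam1 at 48.1 and 45.0 TPM, and of 6 platelet and lymphocyte markers 2 were detected (Pf4 at 47.2 and 51.9 TPM, and Itga2b at 4.07 and 4.22 TPM). Which cells the Atp2a3 transcripts came from was not tested.

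Atp2a1 (chr7:126445858-126463108), the pump gene of fast skeletal muscle, had 0.34 and 0.69 TPM in replicates 1 and 2, on 16.2 and 42.5 counts. Both values are low, and the heart with more counts was replicate 2. In the M21 annotation the exons of Atp2a1 share 763 bases with Rabep2 on the opposite strand, which stood at 11.4 and 12.4 TPM. The sources used here do not state whether counting used strand, so reads in the shared bases cannot be assigned to either gene. The log2 ratio of Atp2a2 over Atp2a3, computed on TPM + 1, was 7.41 ± 0.01 (SD, n = 2), and that of Atp2a2 over Atp2a1 was 8.48 ± 0.35. The second value depends on the added 1, which exceeds the level of Atp2a1, and it was 9.83 with 0.1 added and 5.70 with 10 added. Coding sequences of the 3 pump genes were 70.9% to 75.0% identical over 2970 to 2988 aligned bases, with Atp2a2 nearer to Atp2a1 than to Atp2a3. Atp2a2 itself shares 83 exonic bases with Gm43361 on the opposite strand, a gene named in M21 that has no row in the tables.

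Alternative ends of Atp2a2 give pumps with different tails, and the short cardiac form prevailed. Splicing into a small last exon gives SERCA2a, the form of heart and slow muscle, while reading on without that splice gives SERCA2b, which is made in most tissues and carries an additional membrane helix. In the M21 annotation the transcript Atp2a2-202 encodes 998 amino acids and Atp2a2-201 encodes 1044, and they share their first 2983 coding bases. Their coding ends are shown because they are all that separates the encoded proteins, with 30 shared bases in lower case and the bases after the transcripts part in capitals, both on the minus strand of chromosome 5 and ending with the stop codon.
Atp2a2-202: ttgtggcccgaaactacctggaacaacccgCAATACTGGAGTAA
Atp2a2-201: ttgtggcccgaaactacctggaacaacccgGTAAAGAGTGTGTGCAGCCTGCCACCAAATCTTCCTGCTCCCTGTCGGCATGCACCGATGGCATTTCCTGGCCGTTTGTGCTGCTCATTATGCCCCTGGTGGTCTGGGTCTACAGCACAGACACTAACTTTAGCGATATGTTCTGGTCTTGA
The short ending added 14 bases, stop included, and the long ending 152. Atp2a2-202 had 540 and 483 TPM in replicates 1 and 2, and Atp2a2-201 had 26.4 and 25.6 TPM. The short form thus made up 95.3% and 94.9% of the gene by TPM and 95.15% and 94.75% by counts, so the share hardly depended on length. The third model, Atp2a2-203, which is annotated as a target of nonsense-mediated decay, held 0.01% and 0.03%. Credibility intervals of the long form overlapped between the hearts, whereas those of the short form did not, the level in replicate 2 being the lower. The long form had 4424 and 4239 counts and the short form 86933 and 76799, so intervals of the long form were wider for its level. The contrast therefore does not show that the short form alone differed.

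Transcripts of the inhibitory peptides outnumbered those of the pump. Pln (chr10:53337667-53345987) reached 1710 TPM in replicate 1, against 1632 TPM in replicate 2, from 147359 and 139173 counts, and ranked 85th of all genes. Sln (chr9:53850164-53854560) stood at 733 and 933 TPM from 11631 and 14655 counts, and ranked 167th. Each heart had Pln above Sln and Sln above Atp2a2. Per transcript of Atp2a2 there were 3.02 and 3.21 of Pln and 1.29 and 1.84 of Sln, or 4.31 and 5.05 of both together. On TPM + 1 the log2 ratio of Pln over Atp2a2 was 1.64 ± 0.06, that of Pln over Sln 1.01 ± 0.29 and that of Sln over Atp2a2 0.62 ± 0.36 (SD, n = 2 each). These are ratios of RNA and say nothing of the ratio of the proteins.

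The place of Sln in this order rests on division by length. In the deposited tables Sln has 1 transcript of 515 bases, whereas the same transcript has 1318 bases in M21. Reads outside the shorter model were not assigned to it, and the reads inside were divided by the shorter length. A level on the longer model was not computed, since reads in its further bases are not in the tables. Counted without division by length, Pln drew 12.7 and 9.5 counts for each count of Sln, in place of 2.33 and 1.75 by TPM. On that scale Sln had 0.127 and 0.181 counts for each count of Atp2a2, below it in both hearts. Pln remained above Atp2a2 at 1.61 and 1.72 counts for each. The main model of Pln, Pln-201, changed less, at 2353 bases in the tables and 2334 in M21. Pln-202, which held 3.26% and 3.23% of the gene's TPM, had 2480 bases in the tables and 1715 in M21.

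The coding sequences of both peptides are short enough to show whole, with the stop codon included and on the plus strand. In that of Pln the capitals mark codons 16 and 17, a serine and a threonine known as the sites where protein kinase A and a calcium-dependent kinase relieve the inhibition of the pump.
Pln (chr10:53343864-53344022): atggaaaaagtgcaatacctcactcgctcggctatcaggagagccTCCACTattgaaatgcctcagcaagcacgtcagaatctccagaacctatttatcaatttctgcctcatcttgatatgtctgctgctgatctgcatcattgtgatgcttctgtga
Sln (chr9:53853473-53853568): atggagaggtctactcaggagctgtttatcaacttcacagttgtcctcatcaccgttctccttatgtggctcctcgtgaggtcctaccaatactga
Pln thus encodes 52 amino acids and Sln 31, within 159 and 96 coding bases. All 6 protein-coding models of Pln in M21 hold this same coding sequence, so its transcripts differ only outside it. Pln-201 carried 96.7% and 96.8% of the gene's TPM, and Pln-202 the remaining 3.26% and 3.23%. Cep85l, on the opposite strand, shares 141 exonic bases with Pln and drew 266 and 213 counts, few beside those of Pln. Gm47644, also opposite, shares 1644 exonic bases with Pln in M21 and has no row in the tables, so any reads from it cannot be told apart from those of Pln.

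The 5 genes of calcium export across the plasma membrane summed to 67.0 and 56.7 TPM in replicates 1 and 2, whereas the 3 pump genes of the store summed to 569.7 and 511 TPM, nearly all from Atp2a2. Slc8a1 (chr17:81373105-81738377, minus strand), the exchanger gene of heart, led them with 47.7 and 38.8 TPM in replicates 1 and 2, from 5120 and 4120 counts. It made up 99.7% and 99.5% of exchanger TPM and 71.2% and 68.4% of that of the 5 export genes. Slc8a3, an exchanger gene of brain and skeletal muscle, stood at 0.11 and 0.17 TPM on 21 and 16 counts. Slc8a2, the exchanger gene known mostly from brain, stood at 0.04 and 0.02 TPM on 7 and 3 counts, so that replicate 2 was at the floor of 3 counts (0.0200 TPM). The log2 ratio on TPM + 1 was 5.27 ± 0.26 for Slc8a1 over Slc8a3 and 5.42 ± 0.19 for Slc8a1 over Slc8a2 (SD, n = 2 each). Both rest largely on the added 1, which exceeds the levels of the lower genes. Coding identity among the 3 exchanger genes ranged from 68.3% to 71.7%.

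The gene models behind Slc8a1 cover little beyond its protein. Its main transcript in the tables, Slc8a1-201, has 2913 bases, of which 2910 encode amino acids, while the longest M21 model has 18464. Reads from the untranslated ends are therefore not in these counts. The transcripts also differ in small cassette exons within the part that encodes the large cytosolic loop, a region known for tissue-specific splicing. Slc8a1-201 and Slc8a1-203 have the same length in the tables and in M21 and differ only in which of 2 exons of 21 bases they hold, at chr17:81442203-81442223 in Slc8a1-201 and chr17:81441861-81441881 in Slc8a1-203. Both exons are shown in capitals with 30 flanking coding bases on each side, because reads over them decide between the models.
Slc8a1-201: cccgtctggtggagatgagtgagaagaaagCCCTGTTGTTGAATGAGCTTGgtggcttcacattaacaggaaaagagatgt
Slc8a1-203: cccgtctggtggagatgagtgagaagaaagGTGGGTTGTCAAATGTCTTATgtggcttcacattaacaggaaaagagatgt
The exons matched at 10 of 21 positions when laid side by side. Slc8a1-201 was assigned 5120 counts in replicate 1 and 4089 in replicate 2, whereas Slc8a1-203 was assigned 0 in both. Slc8a1-202 was assigned 0 and 31.4 counts. The credibility interval of Slc8a1-203 reached up to 0.599 and 0.660 TPM. The tables hold these 3 models of Slc8a1 alone, and any other splice form was not measured. An antisense gene of M21, AC122399.1, shares 296 exonic bases with Slc8a1 and has no row in the tables.

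Among the plasma membrane pumps, Atp2b1 exceeded Atp2b4. Atp2b1 (chr10:98914406-99026143), the widely expressed member, was at 15.4 and 14.8 TPM in replicates 1 and 2, from 4124 and 3932 counts on a single model of 7130 bases. Atp2b4 (chr1:133699457-133801041, minus strand), whose product is known in heart as a partner in signalling, stood at 3.80 and 2.91 TPM from 780 and 743 counts. The log2 ratio of Atp2b1 over Atp2b4 on TPM + 1 was 1.89 ± 0.17 (SD, n = 2). It was 2.15 with 0.1 added and 0.91 with 10 added. Their coding sequences were 72.2% identical over 3583 aligned bases. Atp2b1 made up 80.2% and 83.6% of the TPM of this pair.

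Across the routes of removal, Atp2a2 stood above each gene of export in both hearts. Its log2 ratio on TPM + 1 was 3.61 ± 0.10 (SD, n = 2) over Slc8a1, with means 12.4-fold apart, and 5.06 ± 0.08 over Atp2b1. Atp2a2 had 8.46 and 8.97 times the summed TPM of the 5 export genes. Slc8a1 exceeded Atp2b1 by 1.45 ± 0.17, but by only 0.19 on counts not divided by length, where the difference between the hearts was larger than the mean. The 11 gene pairs are written with the gene of higher TPM first, so their shared direction is not a result. All 11 met the limits for a call by TPM. Without division by length Sln was the lower of the pair with Atp2a2, at a log2 ratio of -2.72.

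**Figure D2:**
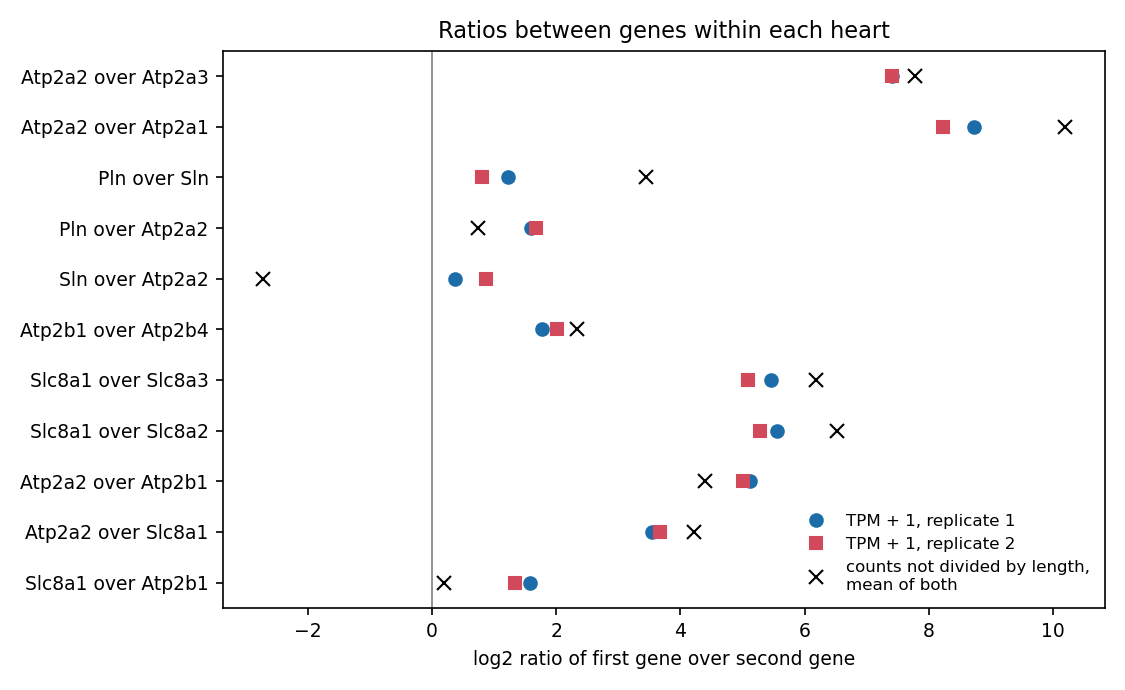
Log2 ratio of the first over the second gene within each heart on TPM + 1, for replicate 1 (circles) and replicate 2 (squares), with the mean ratio of CPM + 1 not divided by length as crosses. All TPM ratios lie above 0, since each pair is written with the gene of higher TPM first. The crosses for Pln over Sln and for Sln over Atp2a2 lie farthest from the TPM ratios among the pairs of abundant genes.

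Among the models in the tables, transcript shares were alike in both hearts for the abundant genes and changed for most of the low ones. Members that reached 5 TPM and had several transcripts were Atp2a2, Pln and Slc8a1. All 3 had the same main transcript in both hearts, against 94.6% of 6445 genes, a share at which 3 of 3 does not set these genes apart. With no minimum, 4 of 7 members had the same main transcript, against 85.2% of 12261 genes. The 3 that changed were Atp2a3, Atp2b4 and Slc8a3. Atp2a3-203 held 70.8% of the gene's TPM in replicate 1 and 15.96% in replicate 2, while Atp2a3-201 held 22.2% and 60.9%. Atp2a3-202, of 4467 bases, held 0% and 18.6%. Credibility intervals of Atp2a3-203 and Atp2a3-201 overlapped in both hearts, at 0.377 to 1.71 TPM for Atp2a3-203 and 0.000424 to 0.788 TPM for Atp2a3-201 in replicate 1. In replicate 2 they ran from 1.1e-06 to 1.00 TPM and from 0.143 to 1.30 TPM. The split between these models, which have 4520 and 4593 bases, was therefore not resolved.

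Short models took a far larger part of TPM than of counts in Atp2b4, in Atp2a1 and, in replicate 2, in Slc8a3. In Atp2b4 the processed transcript Atp2b4-204, of 588 bases, held 39.4% of TPM in replicate 1 and 20.7% in replicate 2, but only 3.59% and 1.498% of counts. Atp2b4-206, of 11725 bases, held 24.1% and 35.2% of TPM and 52.1% and 60.5% of counts. Atp2b4-206 and Atp2b4-207 each encode 1205 amino acids, and Atp2b4-203, which holds an additional exon near the end, encodes 1172. Atp2b4-203 held 15.3% and 27.2% of TPM, and Atp2b4-207 21.2% and 16.9%. In Atp2a1 the fragment Atp2a1-202, of 681 bases, held 61.5% and 62.3% of TPM on 4.69 and 9.44 counts, whereas the full-length Atp2a1-201 held 25.1% and 37.7% of TPM on 11.1 and 33.1 counts. The unnamed model ENSMUST00000126363 held 13.4% of Atp2a1 in replicate 1 on 0.40 counts. In Slc8a3, Slc8a3-202 held all of the TPM in replicate 1 and 43.5% in replicate 2, where Slc8a3-204, of 673 bases, took 56.5% on 2.14 counts.

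**Figure D3:**
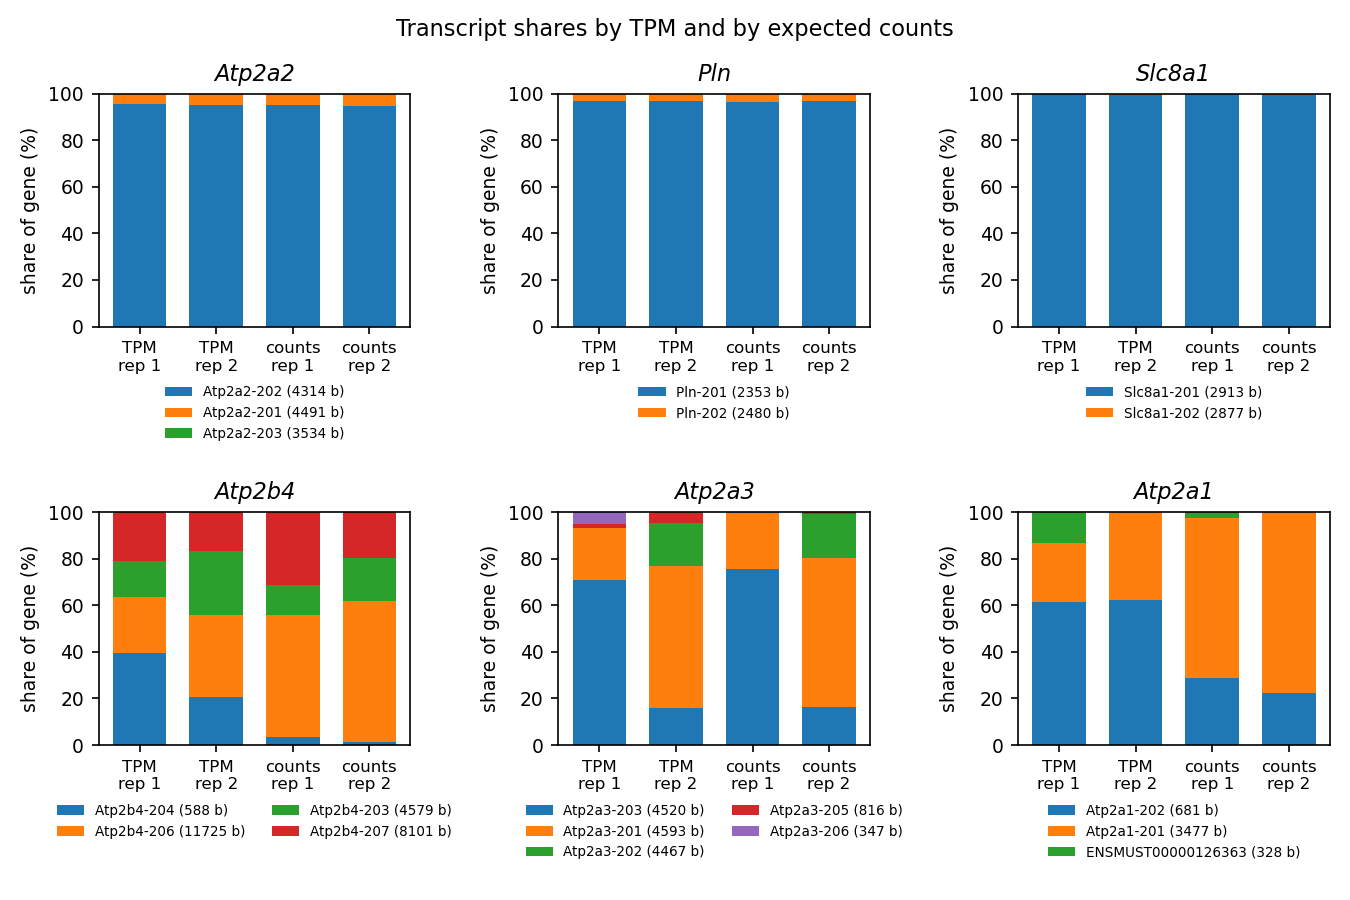
Share of each transcript in its gene, in percent, by TPM (left pair of bars) and by expected counts (right pair) for replicates 1 and 2, with model lengths in bases in the keys. Bars of Atp2a2, Pln and Slc8a1 are alike in all 4 columns, whereas those of Atp2b4, Atp2a3 and Atp2a1 change between hearts or between scales.

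The littermates were compared by the log2 ratio of scaled counts, replicate 2 over replicate 1, fitted over the whole gene table. None of the 7 members that averaged at least 50 counts differed by an absolute log2 ratio of 1, against 0.498% of 13463 genes, and none by 0.5, against 3.36%. Among these 7, Sln had the widest ratio, at 0.36, with a counting interval (95%, exact binomial) of 0.33 to 0.40. Of all genes tested, 7.68% had an absolute ratio at least as large. Slc8a1 followed at -0.28 (-0.34 to -0.22), a size matched or exceeded by 13.0% of genes, then Atp2a3 at -0.19 (27.0%) and Atp2a2 at -0.14 (37.3%). Pln stood at -0.05 and Atp2b1 and Atp2b4 each at -0.04. The intervals cover counting error only and not the spread between animals or library preparations. The median absolute log2 ratio was 0.14 over these 7 genes and 0.10 over all genes tested.

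Sln alone had a ratio above 0 and the other 6 had one below 0, against 50.7% of all genes tested with a ratio below 0. The direction was not settled for all of the 6. Counting intervals included 0 for Atp2a3 (-0.405 to 0.033), Atp2b1 (-0.102 to 0.025) and Atp2b4 (-0.187 to 0.107). With scaling by spike-in RNAs, which drew 262 and 246 counts, only 3 of the 7 were lower and Pln stood at 0.01. That scaling rests on few counts, and its error was not computed. It moved the median ratio of all genes tested from -0.002 to 0.058. Markers of the atria, where Sln is known to be expressed, were mixed. Of 6, 3 were higher in replicate 2 (Myl7 at 0.36, Myl4 at 0.21 and Gja5 at 0.05) and 3 lower (Nppa at -0.06, Stk39 at -0.12 and Bmp10 at -0.35). Their summed level was 13270 TPM in replicate 2, against 12540 TPM in replicate 1. Of 6 heart muscle markers 5 were lower in replicate 2, with a median of -0.19, among them Myh6 at -0.31 and Ryr2 at -0.22. All 4 ventricular markers were detected, of which 2 were higher and 2 lower in replicate 2, and so were all 4 smooth muscle markers, again with 2 higher and 2 lower. All 4 endothelial markers were lower in replicate 2, with ratios from -0.07 (Tek) to -0.16 (Kdr). The detected platelet markers Pf4 and Itga2b were higher there, at 0.15 and 0.05. Several genes known from the airway lining, chosen after their values were seen, were far higher in replicate 2, with ratios of 7.53 for Scgb3a2, 6.08 for Scgb1a1 and 6.80 for Agr2, while Sftpc, a gene of lung alveoli, was lower at -5.94. The part of tissue makeup in the ratios of Sln, Slc8a1, Atp2a3 and Atp2a2 was not tested. All 4 red cell markers were lower in replicate 2 as well, with a median of -0.67 and a summed level of 3915 TPM there and 6033 TPM in replicate 1.

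**Figure D4:**
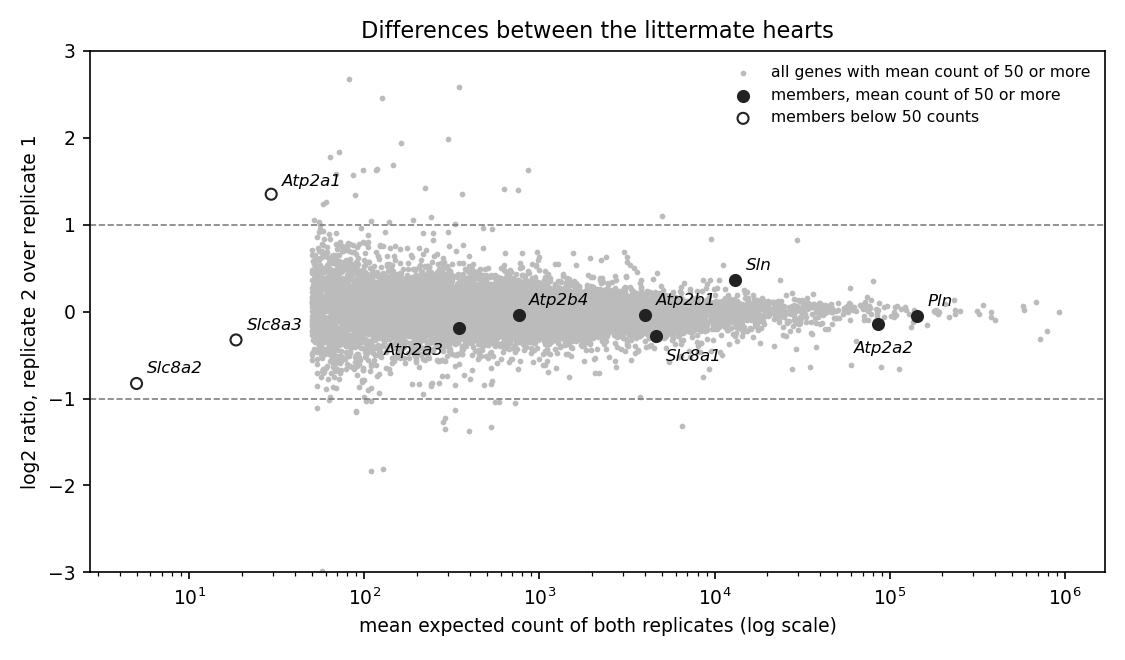
Log2 ratio of replicate 2 over replicate 1 against the mean expected count (log scale), with every gene at or above the limit of 50 counts in grey, members in black and members below 50 counts as open circles. Dashed lines mark an absolute ratio of 1, 19 genes lie beyond the axis limit of 3, and Sln and Slc8a1 lie nearest the edges of the cloud among the 7 well-counted members.

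Atp2a1 had a ratio of 1.35 on 16.2 and 42.5 counts, with a counting interval of 0.60 to 2.38, and was too low for the limit of 50 counts. TPM and counts did not always move together between the hearts. Atp2b4 was nearly level on scaled counts, at -0.04, but at -0.30 by TPM + 1, because its mean model length, weighted by transcript, was 5474 bases in replicate 1 and 6862 in replicate 2. Slc8a3 had fewer counts in replicate 2 and a higher TPM, with a mean model length of 4927 bases in replicate 1 and 2523 in replicate 2.

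Other genes of these pathways were read from lists chosen with earlier results of these data known. Beside the numbers detected below, 29.6% of all Ensembl genes and 54.5% of protein-coding ones reached 1 TPM in both hearts. Of 10 further calcium pumps and exchangers 4 reached 1 TPM in both hearts. Atp2c1, the calcium and manganese pump of the Golgi, was the highest at 18.5 and 23.3 TPM. By TPM it stood above Atp2b1 and Atp2b4, but intervals were not compared. By counts it was below Atp2b1, at 2408 and 2795 against 4124 and 3932 in replicates 1 and 2. Slc8b1, the mitochondrial sodium-calcium exchanger gene, stood at 2.65 and 2.60 TPM, and Slc24a4, a potassium-dependent exchanger gene, at 1.64 and 1.68 TPM. Slc24a2, of the same family, was the last of the 4 at 1.59 and 1.66 TPM. The neuronal pump genes Atp2b2 and Atp2b3 were at 0.16 TPM or less.

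Of 4 genes for other micropeptides that bind SERCA, only 1810037I17Rik, which encodes another-regulin, reached 1 TPM in both hearts, at 88.4 and 95.6 TPM. Smim6, which encodes endoregulin, stood at 0.75 and 1.21 TPM. Gm34302, which encodes the activating peptide DWORF, stood at 0.91 and 0.37 TPM on 5 and 2 counts, and Mrln, which encodes the skeletal muscle peptide myoregulin, at 0.15 and 0.38 TPM on 2 and 5 counts. In both hearts the inhibitors Pln and Sln thus stood far above the activator Gm34302, whose model in the tables has counts at or near the floor of 3.

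All 12 listed genes acting on phospholamban or the pump were detected, against 54.5% of protein-coding genes, with a median of 84.0 TPM. Ppp1ca, a catalytic subunit of the phosphatase that dephosphorylates phospholamban, was the highest at 557 and 577 TPM, followed by S100a1, a calcium sensor that binds SERCA, at 548 and 564 TPM, and Prkaca, the catalytic subunit of protein kinase A, at 235 and 229 TPM. Ppp1r1a, the phosphatase inhibitor gene, was lower at 26.1 and 30.1 TPM. All 6 partners of the plasma membrane proteins were detected as well. Bsg, which encodes a subunit of the plasma membrane pump, stood at 958 and 950 TPM, and Fxyd1, which encodes phospholemman, a regulator of the sodium pump reported to act on the exchanger too, at 888 and 875 TPM. Nptn, which encodes another subunit of that pump, was at 77.0 and 72.8 TPM. Of these 32 listed genes 24 averaged at least 50 counts, and none of the 24 differed between the hearts by an absolute log2 ratio of 1, against 0.498% of all genes tested, a share at which a count of 0 does not set these genes apart.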

How the data were processed

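Total RNA was profiled in 2 hearts. Per the labels, RNA was extracted with Ambion mirVana, 10 ng entered each library and spike-ins were added. Per the deposited read-me, reads were quantified on mm10 with GENCODE M4; the column names are those of RSEM, with its version and the aligner not given in the sources used here. The expected counts deposited are estimated reads per gene or transcript. TPM and FPKM as deposited are scaled by effective length, which is length minus 99 bases. A deposited percent column holds the part each transcript takes in its gene's TPM. The deposited interval bounds (a signal in TPM units) are of unstated width and come from posterior means, so 4 of 20 member TPM values lie outside their own interval.

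Symbols, coordinates, transcript names and coding sequences came from GENCODE M21 on GRCm38, the same genome build. Of 34 transcripts of these genes 33 matched by identifier, and 25 had the same length. Pairs were compared as log2 ratios of TPM + 1 within each heart, and called where both hearts had the same sign, the mean exceeded the difference between the hearts and the intervals did not overlap. Ratios between hearts used expected counts rounded to whole numbers, TMM scaling and a prior count of 2 (edgeR 4.0.16, R 4.3.3). A run on simulated data held only unchanged genes and genes with absolute log2 ratios beyond 1. It therefore does not test ratios as small as those of the well-counted members. Coding sequences were aligned with Biopython 1.88. Tables used Python 3.11.15 and pandas 2.3.3. The genes and lists were chosen with earlier results of these data known. Named by rule were all 10 members, the 3 highest genes of each list (1 of them is not reported here) and transcripts at 10% or more of their gene. Other genes were named after their values were seen, among them Mrln, Ppp1r1a, Nptn, Slc24a2, Atp2b2, Atp2b3 and the airway and alveolar genes.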

Additional observations from a re-analysis of the deposited data

How the results depend on the processing

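Of 77 alternative values of the gene pairs (other pseudocounts, FPKM, posterior means, counts not divided by length, and each heart alone), 75 kept their direction and their call. Most of these could hardly have come out otherwise, so the count of 75 is no measure of robustness. A call already required the same sign and separate intervals in each heart, so either heart alone had to keep it. Other pseudocounts and FPKM cannot turn the direction of a ratio within a heart. The exceptions both came from counts not divided by length, at -2.72 for Sln over Atp2a2, which turned its direction, and 0.19 for Slc8a1 over Atp2b1, which was no longer called. That alternative leaves out gene length, 515 bases for Sln. It used no interval, and with 1 heart the size of the ratio against the spread was not part of the call. The number of detected genes was 7, and 5 at 5 TPM or 9 at 10 counts. Without the limit on mean count 1 gene, Atp2a1, differed between the hearts in place of 0. The count was also 0 with DESeq2 1.42.0 size factors, library totals, spike-in scaling, TPM, posterior mean counts, a prior count of 0.5 or a limit of 0.5 on the log2 ratio. Agreement of main transcripts cannot be recomputed with a heart left out, nor can ratios between the hearts. No paired analysis was possible because there was 1 group. Low counts limit the precision of Slc8a2 (7 and 3 counts), Slc8a3 (21 and 16) and Atp2a1 (16.2 and 42.5). The cause of the unresolved transcript splits was not tested.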

Other observations

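Promoter composition of these genes was read from RefSeq start sites on GRCm38.p6, over the 300 bases around each start, for the 8 members that matched. Atp2a2 and Sln, which are among the most abundant members, did not match. Pln had a GC content of 36.0% and 1 CpG, fewer than in most promoters (5.43% of 32851 had fewer still, and the median was 7). Both starts of Atp2b1 had a GC content of 79.3%, with 54 and 45 CpG, above 99.7% and 98.1% of promoters. Slc8a1 lay between, at 50.7% and 9 CpG. The low genes were mixed, with 4 CpG each for Atp2a1 and Atp2b4, 10 for Slc8a2, 18 for Slc8a3 and 25 for Atp2a3. These are descriptions of sequence, and no relation to level was tested.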
